A study of Mus musculus with 4 samples.

Results

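Histone H2A variants replace the canonical H2A protein in a share of nucleosomes, and 6 genes of this group were described across the 4 arrays of the series: *H2az1*, *H2az2*, *Macroh2a1*, *Macroh2a2*, *Macroh2a3* and *H2ax*. All probe sets annotated to exactly 1 of these symbols were taken, which gave 9 of the 34945 probe sets with 1 symbol and 6 of 18193 genes. *H2az2* and *Macroh2a3* had been picked on their log2 changes between mutant and wild-type arrays, so those changes are given as a description. A further 3 probe sets were annotated to a member together with another gene and stand apart below.

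Each condition was measured on 1 Affymetrix GeneChip array of pooled RNA, so the small number of arrays limits precision, no condition has a replicate, and no test was made. A model that adds genotype and stage would take the stages as replicates and leave 1 residual degree of freedom, and it was not run. The *Hand2*NC embryos were labelled *Hand2* CAT/+; *Wnt1-Cre*, in which Cre driven in the *Wnt1* lineage, that is the neural crest and parts of the dorsal neural tube, switches on a *Hand2* transgene behind a ubiquitous promoter. Wild-type embryos, littermates according to the methods, carried neither transgene by their label, and all were of a mixed C57BL/6J x ICR background. The conditions were *Hand2*NC heads at E12.5, wild-type heads at E12.5, *Hand2*NC whole bodies at E11.5 and wild-type whole bodies at E11.5. No array holds *Wnt1-Cre* embryos without the *Hand2* transgene, so Cre and *Hand2* cannot be told apart in any comparison of the genotypes.

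The transgene, the tissue and the sex-linked genes were read as checks of the labels. A *Hand2* probe set, 1422221_at, had signals of 706 in *Hand2*NC and 33.4 in wild-type heads at E12.5, and of 314 in *Hand2*NC and 67.1 in wild-type embryos at E11.5, whereas the brightest one, 1436041_at, had 839 and 592 at E12.5 and 1244 and 1214 at E11.5 in the same order. The albumin gene *Alb* had signals of 33.7 and 29.1 in *Hand2*NC and wild-type heads, and of 8530.4 and 9009.5 in the E11.5 arrays that the labels name whole body and a legend of the study names heads. The Y-linked gene *Kdm5d* had a signal of 8.72 on the E12.5 *Hand2*NC array and of 677 on the wild-type one, and *Xist*, which coats the inactive X chromosome, had signals of 16187 and 8988. On the E11.5 arrays *Kdm5d* had 535 in *Hand2*NC and 578 in wild-type embryos. The pools at E12.5 thus differed in Y-linked signal together with genotype, and the part of this in the results below was not tested.

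H2A.Z is the variant found around transcription start sites and at enhancers, and in mammals it is encoded by the genes *H2az1* and *H2az2*, whose proteins are nearly identical. MacroH2A carries a large globular macro domain behind its histone part and is known for its accumulation on the inactive X chromosome and on silent genes. H2AX is the variant whose tail is phosphorylated beside DNA double-strand breaks. All of these variant genes except *Macroh2a3* are annotated as protein-coding, and *Macroh2a3* as a transcribed pseudogene.

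In the RefSeq gene table of build GRCm38.p6, *H2az1* lies on chromosome 3 (137864487 to 137866922), *H2az2* on chromosome 11 (6427226 to 6444511), *Macroh2a1* on chromosome 13 (56073622 to 56135626), *Macroh2a2* on chromosome 10 (61738640 to 61784604), *Macroh2a3* on chromosome 15 (62217541 to 62219451) and *H2ax* on chromosome 9 (44334715 to 44336077). RefSeq promoters, from 250 bases before to 50 bases after an assigned start, were given for 4 of the 6 genes. For *H2az1* that start is the first base of the span above. For *H2az2*, *Macroh2a1* and *Macroh2a2*, all on the minus strand, it lies inside the span and not at its outer end. Those of the H2A.Z pair are printed because *H2az2* differed between the genotypes at both stages and *H2az1* is its paralogue. The H2az2 window is chr11:6444394-6444693 on the minus strand and that of H2az1 is chr3:137864237-137864536 on the plus strand, with capitals marking CCAAT on either strand, the pentamer bound by NF-Y.
H2az2: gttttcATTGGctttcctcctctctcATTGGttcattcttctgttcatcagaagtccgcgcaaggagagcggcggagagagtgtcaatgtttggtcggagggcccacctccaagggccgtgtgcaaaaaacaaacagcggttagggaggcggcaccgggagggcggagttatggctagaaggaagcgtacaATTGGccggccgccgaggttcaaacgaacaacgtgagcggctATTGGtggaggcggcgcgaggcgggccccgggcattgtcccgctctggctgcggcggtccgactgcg
H2az1: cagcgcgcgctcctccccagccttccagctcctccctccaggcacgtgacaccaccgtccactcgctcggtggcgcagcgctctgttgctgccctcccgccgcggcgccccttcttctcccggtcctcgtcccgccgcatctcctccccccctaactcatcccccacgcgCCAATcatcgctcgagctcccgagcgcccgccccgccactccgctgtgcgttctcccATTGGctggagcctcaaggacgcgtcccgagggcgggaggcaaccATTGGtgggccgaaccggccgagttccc
CCAAT occurred 4 times in the *H2az2* window, 3 times in that of *H2az1*, 1 time in that of *Macroh2a2* and 0 times in that of *Macroh2a1*. Of 32851 promoters of the same length, 37.4% held it at least 1 time and 1.06% at least 4 times. The E-box CANNTG, the general letters that bHLH factors such as Hand2 recognise, occurred 1 time each in the *H2az2* and *H2az1* windows and in 72.3% of all promoters. The narrower E-box CATCTG, read on either strand, occurred 0 times in the windows of these 4 genes and in 17.2% of all promoters. A match is a description of letters and not a binding site.

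*H2az2* had lower signals in *Hand2*NC than in wild-type at both stages and on both of its probe sets. The bright probe set 1428029_a_at had scaled MAS5 signals of 7259.7 in *Hand2*NC heads and 12140.5 in wild-type heads at E12.5, and of 6519.9 in *Hand2*NC and 11446 in wild-type embryos at E11.5. The dimmer probe set 1436596_at had signals of 545 in *Hand2*NC and 901 in wild-type heads at E12.5, and of 366 in *Hand2*NC and 715 in wild-type embryos at E11.5. On each probe set both *Hand2*NC arrays lay below both wild-type arrays.

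As a share of wild-type, the *Hand2*NC signal of *H2az2* was 59.8% and 60.5% on the 2 probe sets at E12.5, and 57.0% and 51.2% at E11.5. The log2 changes were -0.74 and -0.73 at E12.5, with local spreads of 0.07 and 0.17, and -0.81 and -0.97 at E11.5, with local spreads of 0.12 and 0.18. The local spread is a robust SD of log2 changes among the 500 probe sets closest to it in mean signal on the same pair of arrays, and it mixes error of measurement with true differences. All 4 differences fell short of 2-fold. They were several times the local spread, and the E12.5 change minus the E11.5 change was 0.07 on the bright probe set and 0.24 on the dimmer one.

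**Figure D1:**
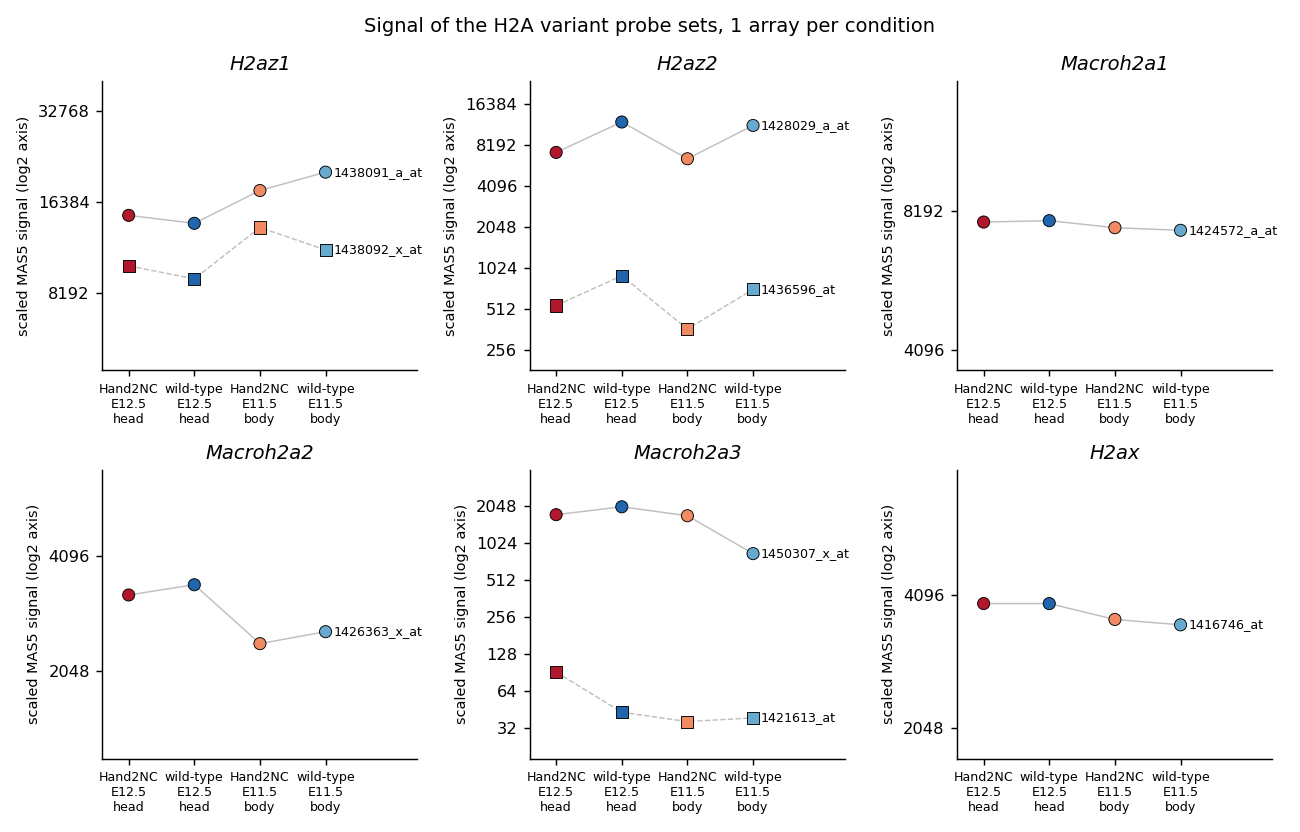
Scaled MAS5 signal (log2 axis) of each H2A variant probe set on the 4 arrays, 1 point for each array, circles for the brightest probe set of a gene, squares for the other, and lines joining 1 probe set. Both *H2az2* probe sets are lower on the *Hand2*NC arrays at each stage, and 1450307_x_at of *Macroh2a3* is low on the wild-type E11.5 array, at 837.

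Among bright genes *H2az2* was set apart by a cut on the same changes that chose it. Of 6877 genes whose signal reached the 75th percentile of an array at both stages, 1 gene, *H2az2*, was lower by at least 0.5 on the log2 scale in *Hand2*NC at both stages (0.0145%), and 1 gene, *Gtpbp2*, was higher by as much at both, with log2 changes of 0.65 at E12.5 and 0.54 at E11.5. *H2az2* had the lowest log2 change of these genes at E11.5, and 5 genes including *H2az2* lay at or below its value at E12.5. Because these changes chose the gene, the ranks describe it and support nothing further.

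**Figure D2:**
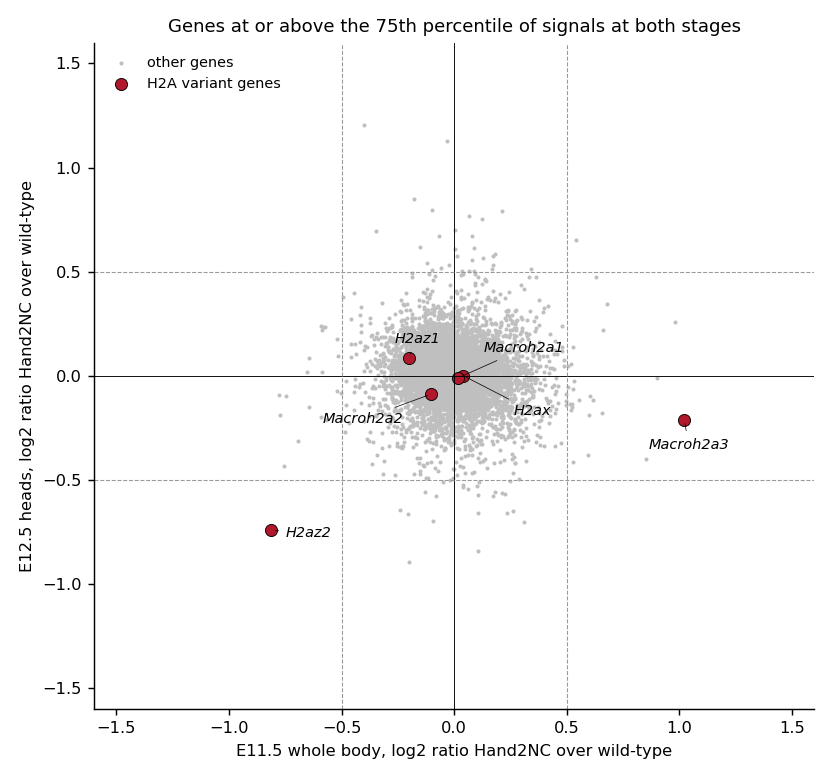
Genotype difference (*Hand2*NC over wild-type, log2) in E12.5 heads (vertical) against E11.5 whole bodies (horizontal) for 6877 genes at or above the 75th percentile of signals at both stages, with the 6 H2A variant genes in red and dashed lines at 0.5 either way. *H2az2* is the sole gene in the lower left corner beyond both lines, *Macroh2a3* lies far right, and 2 genes fall outside the axes.

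The RefSeq table carries an annotation that bears on the mutant genotype. It lists *Wnt1-Cre* and Tg(Wnt1-cre)11Rth among the synonyms of *H2az2*, and another *Wnt1-Cre* line, Tg(Wnt1-cre)2Sor, among those of *E2f1*, a cell cycle regulator. A transgene is listed with a gene in this way where its insertion has been assigned to that gene's locus. The study calls its line *Wnt1-Cre* and gives a stock number, but neither Tg(Wnt1-cre) designation. Whether the *Hand2*NC pools carried an insertion in *H2az2* itself was not tested. *E2f1* had 2 probe sets above the signal filter, with log2 changes of 0.14 and 0.24 in heads at E12.5 and of -0.09 and 0.38 at E11.5. Every *Hand2*NC pool carried *Wnt1-Cre* and, by their label, the wild-type pools did not, so the part of this transgene in the *H2az2* difference cannot be told apart from that of *Hand2*.

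Genes beside *H2az2* on chromosome 11 were then read, a choice made after the values of *H2az2* were seen. The 6 nearest protein-coding genes on each side with a named probe set above the filter at both stages were taken, and *Ppia*, the closest on the lower side, was passed over because its probe set is shared with another gene. At E12.5 the 12 neighbours had log2 changes between -0.57 and 0.25, and the nearest measured gene on either side was lower in *Hand2*NC heads. At E11.5 the 12 lay between -0.23 and 0.30. *Zmiz2*, a coactivator gene, had signals of 574 in *Hand2*NC and 761 in wild-type heads, which is -0.41 on the log2 scale, beside a local spread of 0.15. *Purb*, which encodes a single-stranded DNA binding protein, had 1599 and 2140.4, or -0.42 with a spread of 0.12. At E11.5 *Zmiz2* and *Purb* had log2 changes of -0.17 and -0.12, both within their local spreads of 0.23 and 0.12. *Camk2b*, the farthest on the lower side, had -0.57 at E12.5 and 0.16 at E11.5, and *Nacad*, on the higher side, had -0.29 and 0.17. At E12.5 *Zmiz2*, *Purb*, *Camk2b* and *Nacad* lay beyond their local spreads, and the other neighbours lay within theirs. Of all genes, 32.5% lay beyond theirs either way at that stage.

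**Figure D3:**
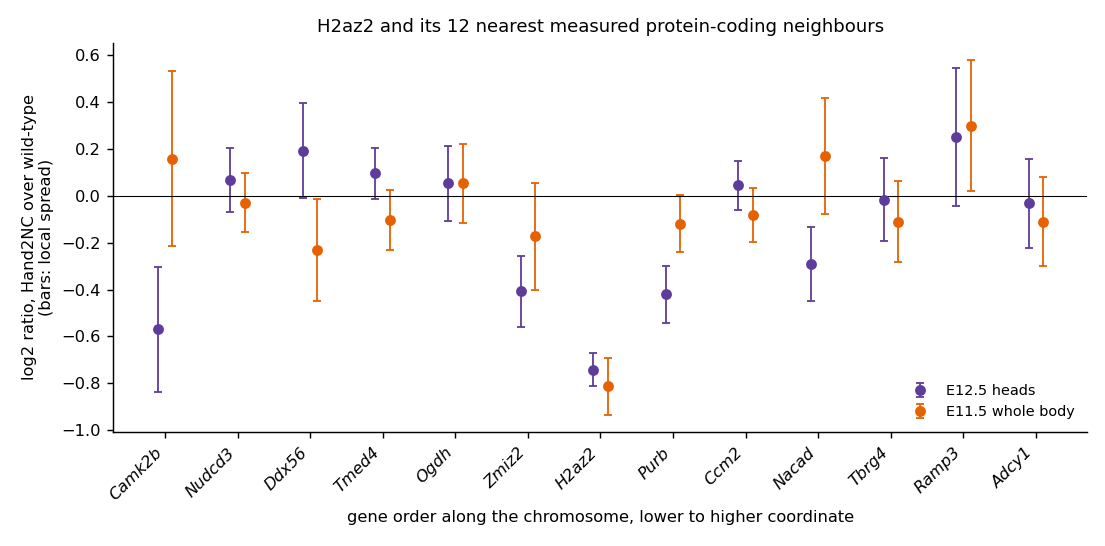
Genotype difference (*Hand2*NC over wild-type, log2) of *H2az2* and its 12 nearest measured protein-coding neighbours in chromosomal order, for E12.5 heads and E11.5 whole bodies, with bars for the local spread. *H2az2* has the lowest value of the 13 genes at each stage, -0.74 and -0.81. The nearest measured genes on either side, *Zmiz2* and *Purb*, are at -0.41 and -0.42 in E12.5 heads, and *Camk2b*, the farthest on the lower side, is at -0.57.

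Whether a paralogue was higher where *H2az2* was lower was read from *H2az1*, the other H2A.Z gene. Its probe set 1438091_a_at had signals of 14810.4 in *Hand2*NC and 13939.7 in wild-type heads at E12.5, and of 17893 in *Hand2*NC and 20575 in wild-type embryos at E11.5. Its probe set 1438092_x_at had 10087 in *Hand2*NC and 9139 in wild-type heads, and 13502 in *Hand2*NC and 11389 in wild-type embryos at E11.5. In heads both probe sets were slightly higher in *Hand2*NC, and at E11.5 they went opposite ways.

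At E12.5 the *H2az1* signal in *Hand2*NC heads was 106% and 110% of that in wild-type heads, log2 changes of 0.09 and 0.14 at local spreads of 0.06 and 0.07. At E11.5 the log2 changes were -0.20 and 0.25 at local spreads of 0.10 and 0.11. A pair of probe sets annotated to *H2az1* together with the pseudogene *Gm8203*, and therefore assigned to neither, split in the same way: 1416415_a_at had a log2 change of 0.04 at E12.5 and -0.19 at E11.5, and 1456032_x_at had 0.08 and 0.37. Those ending in _a_at were thus both lower and those ending in _x_at both higher in *Hand2*NC at E11.5, so the direction of *H2az1* at that stage depends on the probe set. Suffixes of this kind mark probe sets that may bind several transcripts.

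In size, the log2 changes of *H2az1* in heads were at most 0.14, against -0.74 and -0.73 for *H2az2* on the same arrays. Signals of different probe sets cannot be set against each other, so no total of H2A.Z transcript was formed. In whole bodies and whole heads, fewer cells of a type and less RNA per cell cannot be told apart for any of these genes.

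*H2az1* is known as a gene of dividing cells, and proliferation genes were read beside it. Of 16 such genes above the filter, 9 were higher and 0 lower in *Hand2*NC heads at E12.5 beyond their local spread, where 16.2% of all genes were higher by that much. The list median was a log2 change of 0.10, against 0.00 over all genes. *Mcm2*, a helicase subunit of replication origins, was at 0.25 and the mitotic kinase gene *Cdk1* at 0.19. *Tyms*, the thymidylate synthase gene, had -0.34, within its local spread of 0.36. At E11.5 the count was 0 higher and 4 lower, where 33.3% of all genes lay beyond their spread either way. The median was -0.04 against -0.01 over all genes. *Pcna*, the replication clamp, had -0.24, *Cdk1* -0.22 and *Tyms* -0.54, the last with a spread of 0.33. Both *H2az1* probe sets and 9 of these 16 genes were thus higher in *Hand2*NC heads at E12.5, while at E11.5 the *H2az1* probe sets disagreed, and the part of proliferation in the *H2az1* values was not tested. Of 10 neuron markers, 0 were higher and 7 lower beyond the local spread in *Hand2*NC heads at E12.5, and 3 were higher and 0 lower at E11.5. Their median log2 changes were -0.14 at E12.5 and 0.04 at E11.5. Of the erythroid markers above the filter, 2 of 6 were higher and 3 lower at E12.5, and 1 of 8 was higher and 4 lower at E11.5. For all genes the shares beyond the spread either way were 32.5% at E12.5 and 33.3% at E11.5. The part of these cell types was not tested either.

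The coding macroH2A genes differed little between genotypes. *Macroh2a1* had signals of 7748 in *Hand2*NC and 7801 in wild-type heads at E12.5, and of 7533 in *Hand2*NC and 7437 in wild-type embryos at E11.5. The log2 changes were -0.01 and 0.02, at local spreads of 0.08 and 0.12. *Macroh2a2* had signals of 3230 in *Hand2*NC and 3436 in wild-type heads, and of 2409 in *Hand2*NC and 2589 in wild-type embryos at E11.5. Its log2 changes of -0.09 at E12.5 and -0.10 at E11.5 were both just within the local spread of 0.11. Each of these genes was read by 1 probe set.

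*Macroh2a3*, the pseudogene, was read by probe sets that did not go together. The bright one, 1450307_x_at, had signals of 1734 in *Hand2*NC and 2009.7 in wild-type heads at E12.5, and of 1700.2 in *Hand2*NC and 837 in wild-type embryos at E11.5. Of these 4 arrays 3 lay between 1700.2 and 2009.7, and the wild-type E11.5 array was the one apart. This gave log2 changes of -0.21 at E12.5 and 1.02 at E11.5, each beside a local spread of 0.12. The other, 1421613_at, had signals of 91.3 in *Hand2*NC and 43.1 in wild-type heads, and of 36.2 in *Hand2*NC and 38.8 in wild-type embryos at E11.5, all below the array medians, which ran from 97.2 to 106. Its log2 changes were 1.08 at E12.5 and -0.10 at E11.5, at local spreads of 0.50 and 0.66.

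A probe set annotated to both *Macroh2a2* and *Macroh2a3*, 1421612_a_at, had signals of 2527 in *Hand2*NC and 2468 in wild-type heads and of 1846 in *Hand2*NC and 1861 in wild-type embryos at E11.5. Its log2 changes were 0.03 and -0.01. The 2-fold difference of 1450307_x_at at E11.5 was therefore seen on 1 of the 3 probe sets that carry the name of *Macroh2a3*, with the wild-type array as the low one.

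*H2ax*, the DNA damage variant, had nearly equal signals in the genotypes. They were 3911 in *Hand2*NC and 3910.1 in wild-type heads at E12.5, and 3601 in *Hand2*NC and 3502 in wild-type embryos at E11.5, log2 changes of 0.00 and 0.04 at local spreads of 0.10 and 0.11.

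**Figure D4:**
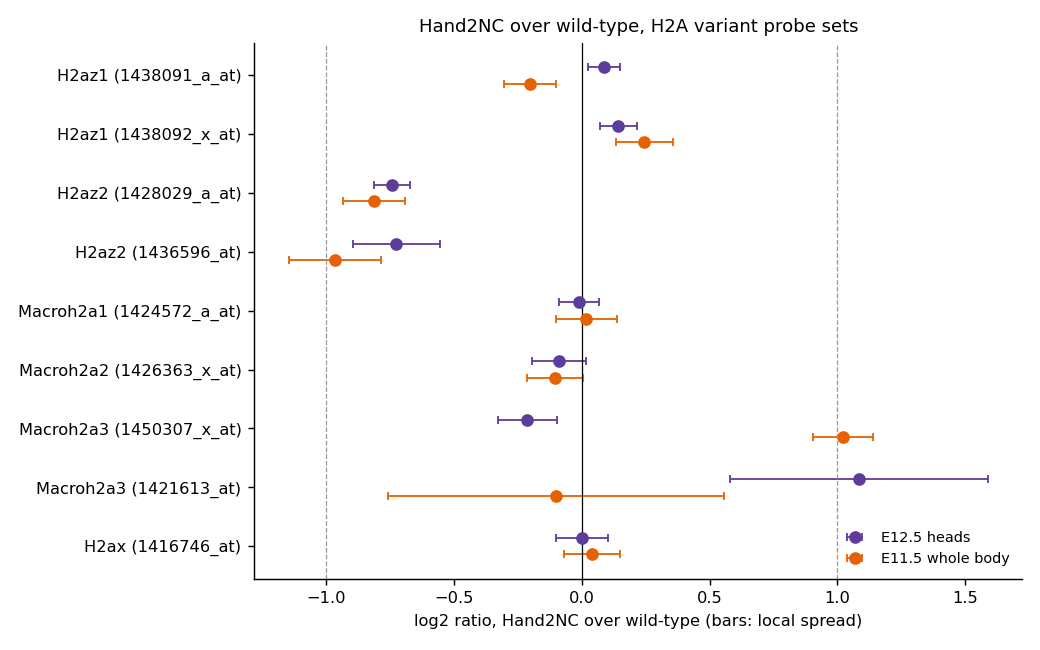
Genotype difference (*Hand2*NC over wild-type, log2) of the 9 H2A variant probe sets in E12.5 heads and E11.5 whole bodies, with bars for the local spread and dashed lines at 2-fold. Both *H2az2* probe sets lie between -0.97 and -0.73 at each stage. The 2 *Macroh2a3* probe sets differ in sign at each stage, but the signals of 1421613_at were all below the array medians. Its E11.5 change of -0.10 lies within its local spread of 0.66.

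Of the 9 probe sets 8 passed the filter on low signals, for which the brighter array had to reach its own median, and 1421613_at of *Macroh2a3* did not. At E12.5, 0 of the 8 reached a 2-fold difference, where 0.766% of all probe sets with 1 symbol differed 2-fold either way. At E11.5, 1 of 8 did, with the higher signal in *Hand2*NC, against 0.693%. By more than the local spread, 2 were higher and 3 lower at each stage, where 34.0% of all probe sets at E12.5 and 34.3% at E11.5 lay beyond theirs either way. The rule had used these contrasts for *H2az2* and *Macroh2a3*, so nothing is read from the counts.

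The machinery that places and removes H2A.Z was read from a list of 37 genes of the SRCAP, TIP60 and INO80 complexes and of H2A.Z chaperones and readers. Of these, 35 lay above the filter at each stage and 0 differed 2-fold, where 0.398% of all genes did at E12.5 and 0.446% at E11.5. Beyond the local spread, 6 were higher and 6 lower in *Hand2*NC heads at E12.5, and 4 and 4 in *Hand2*NC embryos at E11.5, against 32.5% and 33.3% of all genes either way. The list medians were 0.01 at E12.5 and -0.01 at E11.5, beside 0.00 and -0.01 over all genes. *Srcap*, the ATPase that loads H2A.Z, had signals of 322 in *Hand2*NC and 460 in wild-type heads, or -0.52 on the log2 scale with a spread of 0.22. *Brd2*, a bromodomain reader of H2A.Z nucleosomes, had -0.50 at E12.5 and -0.02 at E11.5. *Pwwp2b* had -0.44 at E12.5, with a spread of 0.38. The highest change of the list at E12.5 was that of *Ep400*, 0.41 with a spread of 0.11. At E11.5 *Actl6a*, an actin-related subunit shared by several remodellers, had 0.34, *Ing3*, of the TIP60 complex, 0.33 and *Uchl5*, of the INO80 complex, 0.27.

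Genes that act with the other variants were read in the same way. Of 5 genes on a list of factors linked to macroH2A, 0 differed 2-fold at either stage, with medians of 0.08 at E12.5 and 0.12 at E11.5. Of all genes, 0.398% differed 2-fold at E12.5 and 0.446% at E11.5. Beyond the local spread, 1 was higher and 1 lower in *Hand2*NC at E12.5, and 3 higher and 1 lower at E11.5, against the same 32.5% and 33.3% of all genes. *Daxx*, a histone chaperone, had a log2 change of 0.35 at E12.5 and 0.19 at E11.5, *Atrx*, a remodeller that limits macroH2A deposition, had -0.08 and -0.01, and *Supt16*, of the FACT chaperone, had 0.08 and -0.20. At E11.5 *Hells*, a remodeller of silent chromatin, had 0.12. Of 23 genes of H2AX phosphorylation and DNA damage signalling, 0 differed 2-fold at either stage, against the same 0.398% and 0.446% of all genes. The list medians were 0.04 at E12.5 and -0.03 at E11.5. Beyond the local spread, 5 of the 23 were higher and 1 lower at E12.5, and 1 higher and 4 lower at E11.5. Of all genes, 32.5% and 33.3% lay beyond theirs either way. *Atm*, a kinase of H2AX, had 0.31 at E12.5 and -0.24 at E11.5, and *Atr*, another, had -0.32 and 0.08. *Nbn*, of the break-sensing complex, had -0.31 at E11.5, *Eya2*, of a family of H2AX phosphatases, -0.51 at E11.5, and *Chek1*, a checkpoint kinase gene, 0.21 at E12.5.

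Of 23 other histone genes, 10 passed the filter, and 0 of them differed 2-fold between genotypes at either stage. Of all genes, 0.398% did at E12.5 and 0.446% at E11.5. Beyond the local spread, 3 of the 10 were higher and 1 lower at E12.5, and 2 and 1 at E11.5. The shares of all genes beyond theirs either way were 32.5% and 33.3%. *H1f10*, a linker histone gene, had log2 changes of 0.23 at E12.5 and -0.57 at E11.5, and *H2ac19*, a canonical H2A gene, had -0.36 and 0.24. *H2bc22* had 0.25 at E12.5, within its local spread of 0.36, and *H3f3a*, a gene of the variant H3.3, had 0.28 at E11.5. Transcripts of most canonical histone genes lack a poly(A) tail, which the labelling of these arrays starts from, and such genes are often read by probe sets shared between copies.

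The E12.5 heads were also set against the E11.5 whole bodies within each genotype. Stage and tissue change together here and cannot be told apart, and these differences use the same 4 arrays as those between genotypes. Of 10 heart muscle markers, 2 reached the signal filter at E12.5 and 9 at E11.5, and of 8 liver markers 2 and 8, while all 10 neuron markers were higher in heads beyond the local spread in both genotypes. *H2az1* was lower in E12.5 heads on both probe sets, by log2 changes of -0.27 and -0.42 in *Hand2*NC and of -0.56 and -0.32 in wild-type. *Macroh2a2* was higher in E12.5 heads, by 0.42 in *Hand2*NC and 0.41 in wild-type, at local spreads of 0.28 and 0.33, and the probe set shared by *Macroh2a2* and *Macroh2a3* had 0.45 and 0.41.

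*H2az2* had log2 changes of 0.16 in *Hand2*NC and 0.08 in wild-type on its bright probe set, both within local spreads of 0.21 and 0.20, and of 0.57 and 0.33 on its dimmer one, at spreads of 0.34 and 0.32. *Macroh2a1* had 0.04 in *Hand2*NC and 0.07 in wild-type, and *H2ax* had 0.12 and 0.16, all within the local spread. The bright *Macroh2a3* probe set had 0.03 in *Hand2*NC and 1.26 in wild-type, and this split follows from the low wild-type array at E11.5.

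**Figure D5:**
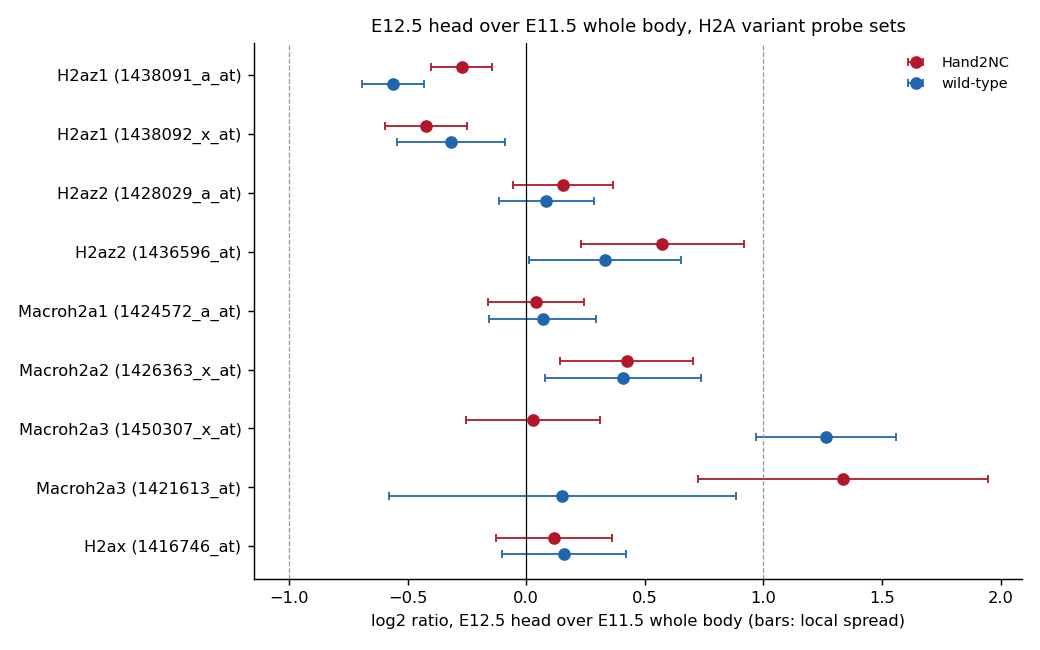
Log2 ratio of E12.5 head to E11.5 whole body for the 9 H2A variant probe sets in *Hand2*NC and in wild-type, with bars for the local spread and dashed lines at 2-fold. *H2az1* is lower in heads and *Macroh2a2* higher in heads in both genotypes, and 1450307_x_at of *Macroh2a3* is at 1.26 in wild-type and 0.03 in *Hand2*NC.

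At least 2-fold differences between E12.5 heads and E11.5 bodies were found for 0 of 8 member probe sets above the filter in *Hand2*NC, where 4.75% of all probe sets with 1 symbol differed so, and for 1 of 8 in wild-type, where 6.77% did. By more than the local spread, 2 were higher in heads and 2 lower in *Hand2*NC, against 34.7% of all either way, and 3 higher and 2 lower in wild-type, against 35.5%. In heads, 8 of the 16 proliferation genes were lower beyond their local spread in *Hand2*NC and 11 in wild-type, and 0 were higher, where 15.0% and 16.4% of all genes were lower by that much. They moved the same way as *H2az1*, and their part in its value was not tested. Among other histone genes, *H3f3b*, of variant H3.3, was higher in heads by log2 changes of 2.58 in *Hand2*NC and 2.48 in wild-type, and *H1f10* by 1.05 and 0.25. *H3f3b* and *H1f10* were the genes of the lists of histones and of their factors that passed 2-fold in either genotype, where 5.11% of all genes did in *Hand2*NC and 7.06% in wild-type.

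Genes with the pattern nearest to that of *H2az2* were sought among 12248 genes that reached the median of at least 1 array, by the Euclidean distance between log2 signals centred over the 4 arrays. The nearest was *Fmc1*, at a distance of 0.22, followed by *Hps5* (0.24), *Tmem94* (0.26), *Grin2d* (0.27) and *Ptprj* (0.28). *Fmc1* had signals of 1067 in *Hand2*NC and 1441 in wild-type heads, and of 884 in *Hand2*NC and 1491 in wild-type embryos at E11.5. The nearest to the bright *Macroh2a3* probe set were *Ikzf4* (0.13), *Zkscan4* (0.14), *Runx1t1* (0.18), *Bicral* (0.18) and *Gas7* (0.20), which share the low value on the wild-type E11.5 array. *Runx1t1* had 1819 in *Hand2*NC and 2397 in wild-type heads, and 1831 in *Hand2*NC and 1014 in wild-type embryos at E11.5. With 4 arrays such likeness is a description.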

How the data were processed

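Pooled RNA of each condition was hybridised to 1 Affymetrix array, 4 in all. The authors deposited linear intensity signals, 1 for each probe set, from MAS5, whose version is not given in the sources used here. No detection calls were used. Of 45101 probe sets, 64 controls were left out. Signals were rescaled so that the 2% trimmed mean of every array was 500, close to the 498 of the files, and log2 was taken. Columns without a sample numbered 0.

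Names came from the platform's annotation and gene identifiers in RefSeq (GRCm38.p6), with 34945 having 1 symbol, 932 several and 9160 none. For lists, a gene was read by its brightest probe set in mean log2 signal. The filter asked that the brighter array of a pair reached its own median, and the cutoff was 2-fold. Lists of genes were compiled from general knowledge, and all members, lists and settings were chosen with earlier results of these data known. Named genes were the members with all their probe sets and, per list, those past 2-fold in a genotype comparison or otherwise the 3 largest changes at each stage. *Hand2* and sex-linked genes served as checks of the labels. *E2f1*, the neighbours of *H2az2*, *Gtpbp2*, *H3f3b*, *Ep400* and *Alb* were named after their values were seen.

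The counting was tested on simulated arrays. Alternatives were no rescaling, centring on medians, quantile normalization, loess (span 0.3), dim values raised to the array median, no filter, both arrays at their median, a 75th percentile filter, a 1.5-fold cutoff, the mean over probe sets, and no use of probe sets whose suffix marks several possible transcripts. The settings of the list counts and of the differences between stages were added after the data were seen. Python 3.11.15, numpy 2.4.6, pandas 2.3.3, statsmodels 0.14.6 and matplotlib 3.10.9 were used.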

Additional observations from a re-analysis of the deposited data

Results flagged for a closer look

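The log2 change of *Hand2*NC against wild-type went opposite ways at the 2 stages, beyond the local spread at each, on 2 member probe sets, and the difference was not tested, since each condition has 1 array and their difference has no residual degrees of freedom. For 1450307_x_at of *Macroh2a3*, the E12.5 change minus the E11.5 change was -1.23, from log2 changes of -0.21 and 1.02. For 1438091_a_at of *H2az1*, it was 0.29, from 0.09 and -0.20.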

How the results depend on the processing

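Both log2 changes of *H2az2* between genotypes kept their sign in all settings, and without probe sets that may bind several transcripts the E11.5 change was -0.97 in place of -0.81. For *Macroh2a3*, that setting leaves 1421613_at alone and gave an E12.5 change of 1.08 in place of -0.21 and turned the E11.5 change to -0.10 in place of 1.02, while the mean over probe sets gave 0.44 and 0.46. The count of member probe sets past the cutoff was 2 at E12.5 and 3 at E11.5 with 1.5-fold in place of 2-fold, against 0 and 1. With no filter, it was 1 at E12.5 and 1 for heads against bodies in *Hand2*NC, against 0 and 0, and other histone genes past 2-fold in *Hand2*NC numbered 3 higher and 1 lower at E12.5 and 3 lower at E11.5, against 0. Over all probe sets with 1 symbol, the count past 2-fold was 156 at E12.5 and 142 at E11.5, and it was 5073 and 4886 with no filter, 861 and 858 with 1.5-fold, 49 and 33 with dim values raised, 34 and 26 with both arrays at their median, and 19 and 8 with the 75th percentile. For heads against bodies the main counts were 983 in *Hand2*NC and 1408 in wild-type, and in the same settings they were 6087 and 6683, 3281 and 4048, 633 and 906, 469 and 717, and 302 and 439. Of 100 other settings of the log2 changes of *H2az1*, *Macroh2a1*, *Macroh2a2* and *H2ax*, 97 moved by less than the local spread, and the 3 that did not were of *H2az1*, among them the mean over its probe sets at E11.5, 0.02 in place of -0.20. Median centring shifted all probe sets by -0.12 for wild-type heads against bodies. The causes were not tested. Without suffixed probe sets *H2az1*, *Macroh2a1* and *Macroh2a2* have no value. No paired analysis was run: each condition has 1 array, the labels pair no replicates, and a fit that takes the 2 stages as pairs, with 1 degree of freedom, was left out. Signals below the array median limit what the dim *Macroh2a3* probe set can show.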
